A study of Mus musculus with 15 samples.

Results

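The BTG and TOB antiproliferative family was described in the mouse hippocampus by 5 genes, Btg1, Btg2, Btg3, Tob1 and Tob2. They were chosen by gene name with earlier results of these same libraries known, so their values are given as a description and support no statement about the family. The 5 genes hold 6 of the 37310 gene entries of the count table, because Tob2 is split over 2 entries, and all 6 entries are among the 18008 that had enough reads to be tested. The data are 15 polyA RNA libraries, 5 per group, each from the hippocampi of 1 male mouse per the article (C57BL/6J, aged 2 months). Mice of the FC group (fear conditioning) were given a single shock to the foot (1.5 mA, lasting 2 s) in a training chamber, with dissection 30 min later. Mice of the RT group (memory retrieval) were trained likewise, spent 5 min in a retrieval test 24 h after training, and were dissected 30 min after that test. CC (control) mice were handled but never trained, and were dissected at the clock time of the others. The libraries carry the numbers 3, 5, 6, 7 and 8 in each group. The article states that a lane held 1 library of each group, without saying which numbers shared one.

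BTG and TOB proteins share an amino-terminal domain that binds the deadenylases CNOT7 and CNOT8 of the CCR4-NOT complex, the main machine that shortens the poly(A) tails of mRNAs and so leads to their decay. TOB proteins also carry motifs that bind the poly(A)-binding protein, and both kinds of protein slow cell division when they are overproduced. Btg2 is known as an early-response gene and as a target of the p53 tumour suppressor, and in the hippocampus it is known for its part in the differentiation of newborn neurons.

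The promoters of the 4 members with sizeable read counts are shown first, since Btg2, Tob1 and Tob2 were higher together in trained mice and early-response promoters are known for sites of the cAMP-responsive factor CREB. Each line gives the 140 bases from position -190 to position -51 before the RefSeq start, 5′ to 3′ on the strand of the gene, with capitals for the cAMP response element (TGACGTCA) and its half-site (TGACG, on either strand). The sequences are those of RefSeq for build GRCm38.p6, and each matched the mm9 genome exactly at 1 place. No annotated exon lies within the 4 windows. They stand at chr10:96079445-96079584 (plus strand) for Btg1, chr1:135975783-135975922 (minus strand) for Btg2, chr11:94072578-94072717 (plus strand) for Tob1 and chr15:81688807-81688946 (minus strand) for Tob2, all in mm9.
Btg1: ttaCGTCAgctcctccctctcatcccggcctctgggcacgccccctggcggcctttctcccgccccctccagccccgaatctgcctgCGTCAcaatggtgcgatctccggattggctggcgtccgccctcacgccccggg
Btg2: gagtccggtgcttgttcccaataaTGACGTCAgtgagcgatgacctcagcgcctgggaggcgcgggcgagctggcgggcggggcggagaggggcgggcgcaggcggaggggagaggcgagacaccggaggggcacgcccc
Tob1: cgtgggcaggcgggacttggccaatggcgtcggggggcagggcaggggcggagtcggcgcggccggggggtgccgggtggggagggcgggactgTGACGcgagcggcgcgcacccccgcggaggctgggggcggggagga
Tob2: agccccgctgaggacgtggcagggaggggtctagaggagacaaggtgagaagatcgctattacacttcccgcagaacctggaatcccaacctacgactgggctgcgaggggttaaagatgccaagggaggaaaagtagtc
The promoter of Btg2 held the whole palindrome at positions -166 to -159, which 1.79% of the 32841 promoters of 300 bases (250 before to 50 after the start) held on either strand. Btg1 held the half-site at 2 places, at positions -187 to -183 and -103 to -99, and Tob1 held it at 1 place, at positions -96 to -92. The half-site, which is also part of the palindrome, occurred in 20.8% of all promoters. Neither Tob2 nor the 2 promoters listed for Btg3 held it, which says only that these letters are not in these windows. The Tob2 window lies between the exons of a second annotated entry of Tob2 (chr15:81688104-81689226, minus strand). The start of that entry, further upstream, was not searched. Btg2 also held a site of the EGR factors (GCGNGGGCG, in 5.55% of promoters), Btg1 and Tob1 held a TATA box (TATAAA, 13.6%), and all members other than Tob2 held a CCAAT box (CCAAT, 37.4%). The AP-1 site (TGANTCA, 7.81% of promoters) and the CArG box of serum response factor (1.63%) were found in none of the 6 promoters. These are matches of letters on both strands and no measure of binding.

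The deposited values are counts of read pairs per gene. In each library the counts were divided by a factor proportional to the upper quartile of its genes (UQ), and the comparisons were made with UQ alone and with UQ and 5 factors of unwanted variation (RUVs). These factors are estimated from negative control genes and from the deviations of libraries within their group. The libraries held between 35731428 and 62555543 counted reads (median 52154887). The libraries FC3 and RT3 stood apart: the interquartile range of their relative log expression, the spread of all genes around their median over libraries, was 0.828 and 0.436, against at most 0.117 in the other 13. Many of the group comparisons of the members, and of the levels that these libraries set, are therefore also given without both.

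Btg2 was higher in every trained library than in every control library. Its UQ counts in CC were 878, 820, 934, 842 and 977 for numbers 3, 5, 6, 7 and 8. In FC they were 1400, 1650, 1494, 1561 and 1403. In RT they were 1475, 1491, 1395, 1490 and 1406. The highest control library thus lay well below the lowest of the 10 trained ones, and FC3 was the lowest FC library, next to FC8. The means were 890.2 ± 64.9 in CC, 1502 ± 107 in FC and 1451 ± 47.1 in RT (SD, n = 5 each). Between libraries of the same number FC was 1.44 to 2.01 times CC and RT 1.44 to 1.82 times CC. The numbers gave no sign of pairing CC with FC or RT, though this does not exclude it. Such ratios, here and below, are therefore not taken as those of matched libraries. The log2 fold change with RUVs was 0.77 ± 0.05 (SE, FDR 1.54e-58, edgeR likelihood ratio test over all genes) for FC vs CC and 0.70 ± 0.05 (FDR 2.66e-47) for RT vs CC, and Btg2 stood at place 2 of the 18008 genes by p in both. With UQ alone the values were 0.76 ± 0.12 (FDR 8.63e-07) and 0.71 ± 0.12 (FDR 1.10e-05). Btg2 was also among the genes that the study listed as positive controls of both comparisons, so its direction is not independent evidence.

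Tob2, which like Tob1 encodes a protein that binds both deadenylase and poly(A)-binding protein, was higher in both trained groups by a smaller factor. Its UQ counts were 1066, 1002, 1129, 960 and 1262 in CC in the order of the numbers. In FC they were 1211, 1600, 1375, 1517 and 1703. In RT they were 1436, 1654, 1546, 1509 and 1677. Every RT library lay above every CC library, and so did 4 of the 5 FC libraries, while FC3 with 1211 lay below the highest control. The means were 1084 ± 119 in CC, 1481 ± 193 in FC and 1564 ± 101 in RT (SD, n = 5 each). Between libraries of the same number, which are not known to be matched pairs, FC was 1.14 to 1.60 times CC and RT 1.33 to 1.65 times CC. The log2 fold change with RUVs was 0.49 ± 0.06 (FDR 6.84e-15, place 23 by p) for FC vs CC and 0.53 ± 0.06 (FDR 2.99e-18, place 16) for RT vs CC. With UQ alone it was 0.45 ± 0.14 (FDR 0.233) and 0.53 ± 0.14 (FDR 0.0786), which did not pass the threshold of 0.01.

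Tob1 showed the same direction with the widest scatter in FC. Its UQ counts were 1542, 1454, 1563, 1431 and 1595 in CC. In FC they were 952, 1933, 1826, 2059 and 2292. In RT they were 1751, 2021, 1820, 1905 and 2356. All 5 RT libraries and the 4 FC libraries other than FC3 lay above the highest control, whereas FC3 lay below every control. The means were 1517 ± 71.1 in CC, 1812 ± 511 in FC and 1971 ± 238 in RT (SD, n = 5 each). Between libraries of the same number, again not known to be matched pairs, RT was 1.14 to 1.48 times CC. FC was 0.617 times CC for number 3 and 1.17 to 1.44 times in the other 4. The log2 fold change with RUVs was 0.32 ± 0.05 (FDR 9.75e-08, place 57) for FC vs CC and 0.40 ± 0.05 (FDR 3.24e-12, place 28) for RT vs CC. With UQ alone it was 0.26 ± 0.18 (FDR 0.966) and 0.38 ± 0.18 (FDR 1.00). The coefficient of variation of Tob1 in FC was 28.2% in UQ counts and 2.74% after RUVs, whose factors are built from deviations within groups and so reduce that spread by construction.

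Without FC3 and RT3 the 3 genes passed with UQ alone as well. In the other 13 libraries with UQ alone, an alternative chosen after the data were seen, Btg2, Tob1 and Tob2 all passed the threshold in both comparisons. Tob1 then had a log2 fold change of 0.42 (FDR 9.91e-05) for FC vs CC and 0.42 (FDR 0.000171) for RT vs CC. Tob2 had 0.52 (FDR 2.86e-07) and 0.56 (FDR 1.04e-08). Btg2 had 0.78 (FDR 1.16e-27) and 0.70 (FDR 6.90e-22), close to its values in all 15 libraries. In that fit 0.521% of the 17856 genes tested passed as higher in FC and 0.336% as higher in RT.

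**Figure D1:**
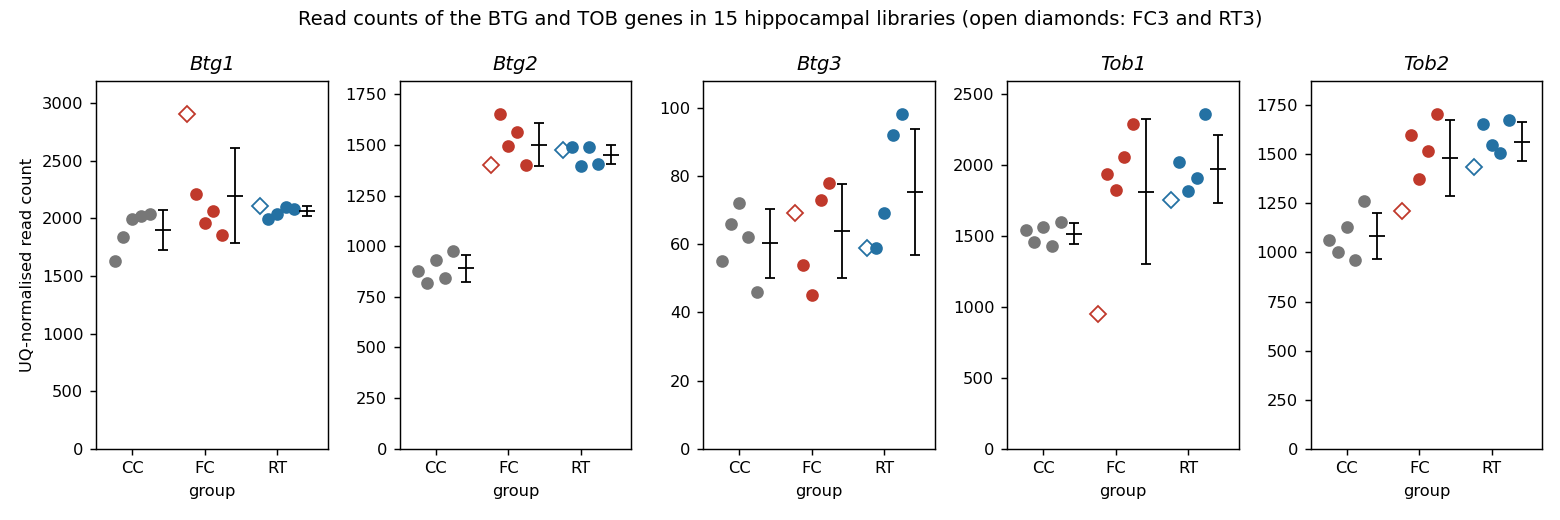
Each panel plots the UQ-normalised read count (vertical axis, from 0) of 1 gene in the 5 CC, 5 FC and 5 RT libraries, with the group mean and SD as a black bar and FC3 and RT3 as open diamonds. All trained libraries of Btg2 sit at 1395 or above and all controls at 977 or below, while for Tob1 the FC3 library at 952 lies under every control.

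Btg1, the founding member of the family, did not pass the threshold in either comparison. Its UQ counts were 1626, 1838, 1994, 2022 and 2035 in CC. In FC they were 2902, 2210, 1958, 2062 and 1859. In RT they were 2104, 1994, 2039, 2099 and 2080. The FC and RT libraries overlapped the controls, and the highest value of all was that of FC3. The means were 1903 ± 174 in CC, 2198 ± 414 in FC and 2063 ± 46.4 in RT (SD, n = 5 each). The log2 fold change with RUVs was 0.13 for FC vs CC (95% interval 0.00051 to 0.26, FDR 0.300) and 0.09 for RT vs CC (interval -0.04 to 0.22, FDR 0.671). With UQ alone the FC vs CC value was 0.21 in all 15 libraries and 0.09 without FC3 and RT3, and with RUVs it was 0.11 without them. RefSeq lists 2 further loci on chromosome X, Btg1b and Btg1c, that carry the older names Btg1-ps1 and Btg1-ps2, so Btg1 reads that map equally well there would have been dropped with the other multiply mapped reads.

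Btg3 was the least abundant member, with UQ counts of 45 to 98, and its groups overlapped throughout. The counts were 55, 66, 72, 62 and 46 in CC. In FC they were 69, 54, 45, 73 and 78. In RT they were 59, 59, 69, 92 and 98. The means were 60.2 ± 10.1 in CC, 63.8 ± 13.8 in FC and 75.4 ± 18.5 in RT (SD, n = 5 each), and 2 libraries of each trained group lay above the highest control. The log2 fold change with RUVs was 0.04 for FC vs CC (interval -0.22 to 0.30, FDR 0.939) and 0.28 for RT vs CC (interval 0.04 to 0.53, FDR 0.333). Without FC3 and RT3 the values with RUVs were 0.04 and 0.32. At this depth a change of the size seen in Tob1 lay within the interval of Btg3 for RT vs CC.

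Btg4, a member known from oocytes, had 9 reads in all, in 6 of the 15 libraries and at most 2 in any of them, and was not tested. No other entry of the count table has a name of the BTG or TOB family besides the second entry of Tob2. That entry had 7 to 22 UQ counts per library and log2 fold changes with RUVs of 0.02 (FDR 0.984) and 0.29 (FDR 0.772). It lies at chr15:81688104-81689226 and shares 325 exonic bases with the main entry at chr15:81678700-81688756, on the same strand. Reads in the shared stretch could not be given to either entry when counted, so the Tob2 counts omit part of its first exon. The other 4 members lie at chr10:96079635-96085447 (Btg1, plus strand), chr1:135971747-135975697 (Btg2, minus), chr16:78360105-78377437 (Btg3, minus) and chr11:94072768-94076809 (Tob1, plus) in mm9, and no annotated gene overlaps them.

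With RUVs, 3 of the 5 members passed as higher in FC than in CC and none as lower, where 1.32% of all genes tested passed as higher. The same 3 members passed as higher in RT than in CC, where 0.866% of all genes did. With UQ alone only Btg2 passed in either comparison, beside 0.178% of all genes for FC and 0.100% for RT. In plain UQ counts, Btg2 was the only member with every FC library above every CC library, as were 0.516% of all genes, and Btg2, Tob1 and Tob2 had every RT library above every CC library, as had 0.877%. Both comparisons share the 5 control libraries, and the members were chosen with these contrasts known, so nothing is read from the counts. In whole tissue, more RNA per cell and more cells of a type cannot be told apart.

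**Figure D2:**
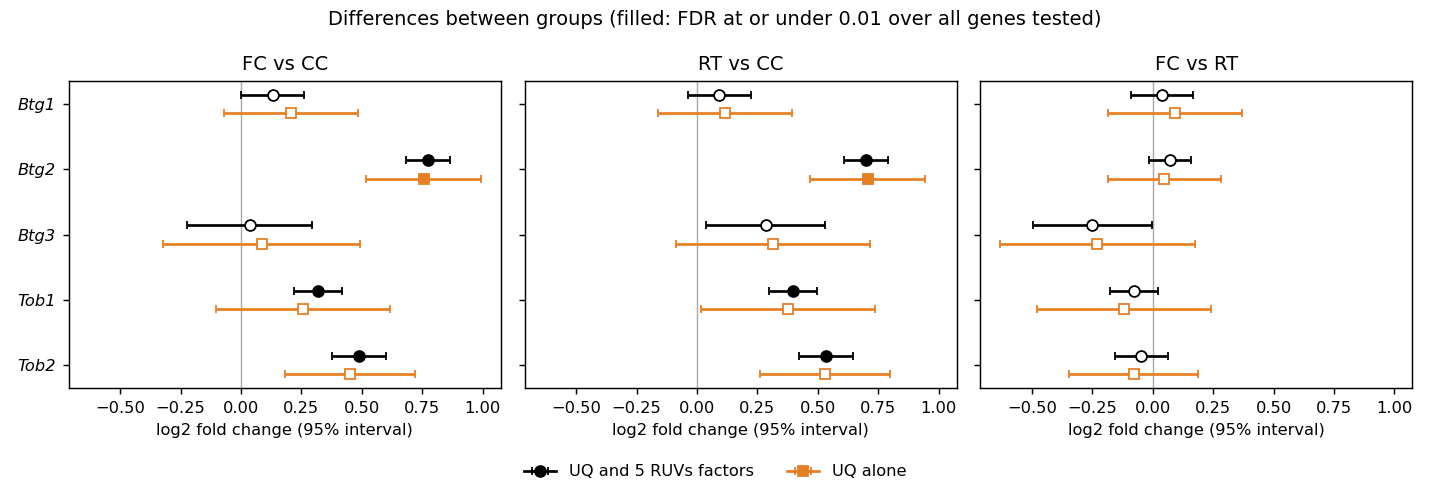
The horizontal axis is the log2 fold change of each gene with its 95% interval in the 3 comparisons, with UQ and 5 RUVs factors (black circles) and with UQ alone (orange squares), and filled symbols mark an FDR at or under 0.01 over all 18008 genes. Btg2, Tob2 and Tob1 lie above 0 with RUVs in both comparisons with CC, the intervals with UQ alone are wider, and no symbol is filled for FC vs RT.

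No member differed past the threshold between FC and RT, a comparison in which 0.122% of all genes passed in either direction. The model reported has no term for the library number, which may pair FC libraries with RT libraries. The log2 difference FC minus RT was 0.07 for Btg2 (95% interval -0.01 to 0.16, FDR 0.582), -0.08 for Tob1 (-0.18 to 0.02, FDR 0.604) and -0.05 for Tob2 (-0.16 to 0.06, FDR 0.835). The intervals thus leave room for differences of these sizes, which are smaller than the rises of the 3 genes over CC. For Btg1 the difference was 0.04 (-0.09 to 0.17, FDR 0.895). For Btg3 it was -0.25 (-0.49 to -0.005, FDR 0.452), with an unadjusted p of 0.0455, and the Btg3 count was lower in FC than in RT for 4 of the 5 numbers. By unadjusted p under 0.05 Btg3 was the only member, and with UQ alone its FDR was 1.00.

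Levels can be compared between genes only per length, here as RPKM (reads per kilobase of exon, scaled to the total of the library). The length used for Tob2 includes the 325 bases shared with its second entry, where reads could not be counted. The level of Tob2 and its share among the 5 genes are thus understated, and its place beside Btg1 is uncertain. In CC, Tob1 had the highest level of the 5 genes, 12.96 ± 0.52 RPKM (SD, n = 5), above 74.1% of the genes tested. Btg1 followed with 7.42 ± 0.63, Btg2 with 6.34 ± 0.40 and Tob2 with 5.30 ± 0.53 RPKM, and Btg3 was far lower with 0.819 ± 0.140. The ranges over the CC libraries of Btg1 (6.40 to 7.91), Btg2 (5.90 to 6.85) and Tob2 (4.71 to 6.08) overlapped from one to the next, so only Tob1 at the top and Btg3 at the bottom stood clear. In RT the order was Tob1 (16.9 ± 2.12), Btg2 (10.4 ± 0.26), Btg1 (8.07 ± 0.17), Tob2 (7.68 ± 0.54) and Btg3 (1.03 ± 0.25). Btg2 had thus moved above Btg1, with no overlap between its RT libraries (10.1 to 10.6 RPKM) and those of Btg1 (7.77 to 8.20), whereas Btg1 and Tob2 (6.94 to 8.29) overlapped. In FC the values were 15.6 ± 4.59 for Tob1, 10.7 ± 0.93 for Btg2, 8.55 ± 1.40 for Btg1, 7.26 ± 1.08 for Tob2 and 0.865 ± 0.183 for Btg3. There Tob1 and Btg2 overlapped, since FC3 had the lowest Tob1 value of 7.79 RPKM. Without FC3, Tob1 was at 17.5 ± 1.73 and Btg1 at 7.97 ± 0.62 RPKM (SD, n = 4), and no FC library of Tob1 overlapped those of Btg2 (10.1 to 12.0).

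A share of the summed RPKM of the 5 genes does not depend on how a library is scaled. Btg2 made up 18.7% to 19.7% of the sum in the CC libraries, 21.6% to 27.5% in FC and 21.0% to 25.3% in RT, so that its share was higher without overlap. FC3 and RT3 set the upper ends, which without them were 25.9% in FC and 24.3% in RT. The share of Btg1 was 19.99% to 24.9% in CC and 17.0% to 19.8% in RT, lower without overlap. In FC it was 15.7% to 31.2%, with FC3 at the top, and 15.7% to 19.0% without FC3. Tob1 (38.6% to 41.5% in CC, 36.04% to 42.1% in RT) and Tob2 (14.8% to 17.5% and 16.9% to 18.2%) had overlapping shares, and shares that must add up cannot all rise. The lowest Tob1 share in RT was that of RT3, and without RT3 it was 37.1%. The summed level of the 5 genes was 31.5 to 34.8 RPKM in CC, 41.0 to 48.3 in RT and 34.8 to 46.8 in FC. The lowest FC sum was again that of FC3, which reached no further than the controls, and the other 4 had 41.6 to 46.8.

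**Figure D3:**
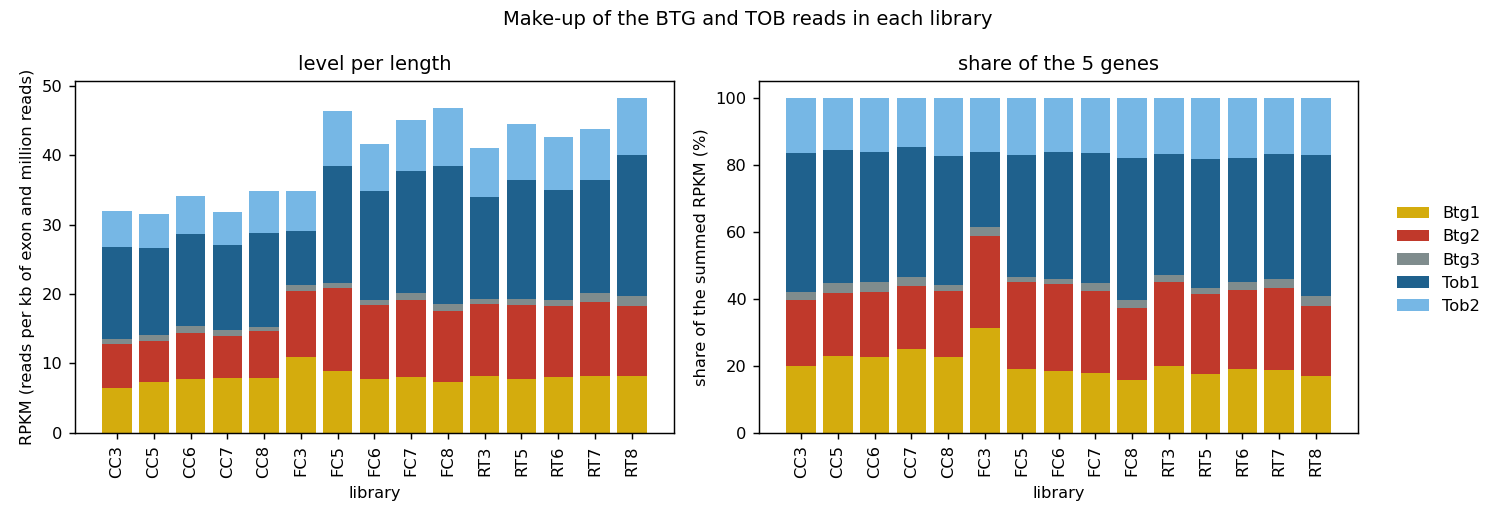
Stacked bars give the RPKM of the 5 genes in each of the 15 libraries (left, reads per kilobase of exon scaled to the library total) and the share of each gene in their sum in percent (right). The Btg2 segment is wider in all FC and RT libraries than in the CC libraries, and FC3 shows a small Tob1 and a large Btg1 segment.

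The 3 genes that rose also had similar profiles over libraries. Over the 13 libraries other than FC3 and RT3, Pearson's r of log2(UQ count + 1) was 0.941 between Tob1 and Tob2, 0.927 between Btg2 and Tob2 and 0.852 between Btg2 and Tob1. Over all 15 libraries it was 0.742, 0.882 and 0.463. Btg1 had 0.348 to 0.550 with these 3 genes over 13 libraries, and Btg3 had 0.205 to 0.471 with them. These values are a description, since the libraries share groups and scaling and the groups themselves differ.

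Among the 13748 genes with a mean UQ count of at least 100, the 5 most similar to Btg2 over the 13 libraries were Arc, an activity-regulated protein of synapses (r 0.977), Junb, an AP-1 subunit (0.974), Mcl1, which protects from cell death (0.972), Sik1, a salt-inducible kinase (0.965), and Fos, a further AP-1 subunit (0.963). Over all 15 libraries r stayed between 0.934 and 0.976 for Arc, Junb, Sik1 and Fos, and it was 0.687 for Mcl1. Those nearest to Tob2 were Sik1 (0.951), Arc (0.942), Tob1 (0.941), Zfp658 (0.932) and Dusp1, a phosphatase of MAP kinases (0.927). Those nearest to Tob1 were the polarity gene Pard6b (0.944), the chondroitin synthase Chsy1 (0.942), Tob2 (0.941), the Notch-regulated Nrarp (0.931) and Sik1 (0.897), and over all 15 libraries these were 0.540 to 0.774. Sik1 was thus on all 3 lists. Among the nearest to Btg1 were Pex11a, Ecm1, Zfp410 and 1110054O05Rik (0.836 to 0.851), and among those to Btg3 were E130012A19Rik, Nfkbid, Mrps14 and Dbp (0.848 to 0.901), of which E130012A19Rik and Mrps14 had r of 0.379 and 0.347 over all 15 libraries. In log values after RUVs, Arc, Junb, Sik1 and Fos had r of 0.980 to 0.992 with Btg2, and Mcl1 had 0.971. RUVs reduces the spread within groups by construction, so these values show no added likeness.

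The 3′ UTR is where factors that recruit deadenylases to an mRNA bind, and it differed among the members. The longest annotated 3′ UTR was 4170 bases in Btg1, 2459 in Tob2, 2199 in Btg2, 767 in Tob1 and 439 in Btg3, against a median of 1198 over 14625 tested genes. The AU-rich pentamer ATTTA occurred 11 times in Btg1, 5 in Btg2, 4 in Tob2, 4 in Btg3 and 3 in Tob1. Per kb this was 2.64, 2.27, 1.63, 9.11 and 3.91 in that order, all above the median gene (1.22). The longer TATTTAT was found 2 times in Btg3 and 1 time each in Btg2 and Tob2, beside 28.4% of genes with at least 1 match. The 3 genes that rose differed from each other in 3′ UTR length and shared no count of these motifs that Btg1 or Btg3 lacked. These are matches of letters in the longest annotated 3′ UTR of each gene, and their part in the rises was not tested.

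The partners of the family were read from lists of pathway genes, of which 83 of the 84 in the count table were tested. None of the 12 CCR4-NOT subunits passed in any of the 3 comparisons by edgeR with RUVs, and with UQ alone none passed either. By unadjusted p under 0.05 there were 2, 2 and 1 (FC vs CC, RT vs CC, FC vs RT). Among all 18008 genes, a p of 0.0491 stood at place 2952 for FC vs CC, and a p of 0.0455 at place 1814 for FC vs RT. For RT vs CC a p of 0.0239 already stood at place 1291. Such p-values were thus common among all genes. Nothing is read from these counts, here or in the lists below. The median log2 fold change of the 12 subunits was 0.0006 (FC vs CC) and 0.0029 (RT vs CC), beside -0.01 and -0.001 over all genes tested. The deadenylase genes that BTG and TOB proteins bind, named here for that role, had values near 0, with 0.03 ± 0.03 for Cnot7 and -0.02 ± 0.04 for Cnot8 for FC vs CC. The smallest p belonged to Cnot6l, a further deadenylase (0.12 ± 0.05, FDR 0.0941), and Cnot6 (0.08 ± 0.04, FDR 0.296). For RT vs CC they belonged to Tnks1bp1 (-0.07 ± 0.03, FDR 0.228) and Cnot2 (-0.07 ± 0.04, FDR 0.437).

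Of 15 other deadenylation and poly(A) factors none passed in any comparison, with 4, 1 and 3 at an unadjusted p under 0.05. The decapping enzyme Dcp2 came nearest, with 0.14 ± 0.04 (FDR 0.0142) for FC vs CC and 0.16 ± 0.04 (FDR 0.0178) for FC vs RT, followed by its activator Dcp1a with 0.14 ± 0.04 (FDR 0.0381) for FC vs CC. Of 15 RNA-binding adaptors that bring deadenylases to mRNAs none passed, with 2, 2 and 3 at an unadjusted p under 0.05. The lowest p for FC vs CC was that of Zfp36l2 (-0.25 ± 0.07, FDR 0.0122), which binds AU-rich elements. Of 11 reported protein partners none passed, with 4, 3 and 0 at an unadjusted p under 0.05. The retinoic acid receptor Rara had 0.21 ± 0.07 (FDR 0.0880) for FC vs CC, and the ubiquitin ligase subunit Skp2 had 0.23 ± 0.07 (FDR 0.0282) for RT vs CC. With UQ alone, too, no gene of these 3 lists passed.

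The G1 cell cycle genes, on which BTG and TOB proteins act when they slow division, gave no call among 14, with 5, 5 and 2 at an unadjusted p under 0.05 and none with UQ alone. Cyclin D3 (Ccnd3) had 0.15 ± 0.05 (FDR 0.111) for FC vs CC and 0.18 ± 0.05 (FDR 0.0615) for RT vs CC, and the inhibitor Cdkn1a had 0.21 ± 0.06 (FDR 0.0444) for RT vs CC. Of 17 p53 target genes, a list that leaves out Btg2, 2 rose (FC vs CC) and 1 rose (RT vs CC), and no gene fell. Ddit4, an inhibitor of mTORC1 that glucocorticoids and stress also induce, rose by 0.42 ± 0.05 (FDR 1.04e-13) and 0.43 ± 0.05 (FDR 1.18e-14), with mean UQ counts of 2412 ± 328 in CC, 3314 ± 434 in FC and 3352 ± 531 in RT (SD, n = 5 each). Trp53inp1 rose by 0.23 ± 0.06 (FDR 0.00560) for FC vs CC, and had 0.06 ± 0.06 (FDR 0.791) for RT vs CC. Over the 17 genes the median was 0.06 and 0.07, and none passed with UQ alone. In all, 2 of the 83 pathway genes passed in FC vs CC and 1 in RT vs CC, all as higher, beside the 1.32% and 0.866% of all genes given above.

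**Figure D4:**
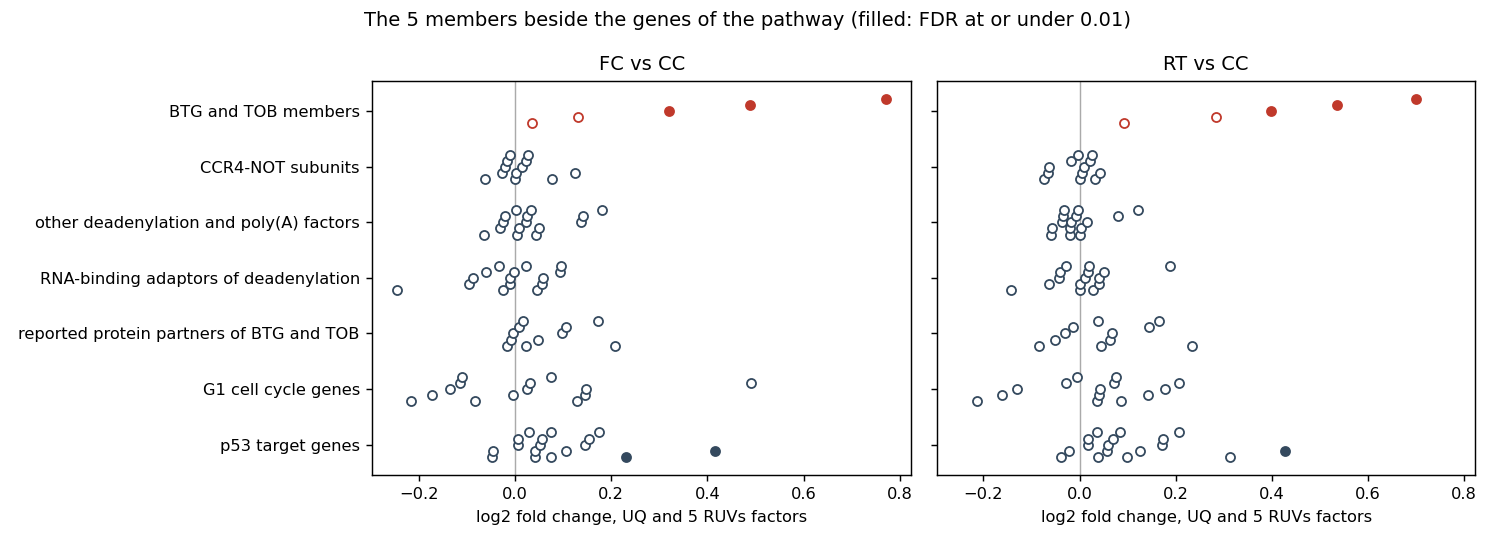
Each point is the log2 fold change of 1 gene (horizontal axis, UQ and 5 RUVs factors) for FC vs CC and RT vs CC, in rows for the 5 members (red) and for the 6 pathway lists, and filled points have an FDR at or under 0.01. Btg2, Tob2 and Tob1 are the filled points of the first row, Ddit4 is filled in both panels, and the CCR4-NOT subunits lie between -0.07 and 0.12.

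Since the family is known from dividing cells and newborn neurons, marker genes of these and other cell types were read beside it. The 10 markers of dividing cells gave no call in any comparison (0, 1 and 1 at an unadjusted p under 0.05, none with UQ alone), and their summed level was 14.2 to 15.4 RPKM in CC, 13.9 to 17.7 in RT (at most 15.3 without RT3) and 13.9 to 15.1 in FC. Of 11 markers of progenitors and neuroblasts, Hes5, a Notch target of progenitors, fell by 0.43 on the log2 scale in both comparisons (FDR 8.40e-06 and 4.79e-06), though its mean UQ count was 266.2 in CC and 268.2 in FC, the other 10 did not pass, and with UQ alone none of the 11 did. Their sum was 38.1 to 40.3 RPKM in CC, 35.2 to 44.6 in RT and 32.8 to 42.1 in FC. Without RT3 and FC3 the lower ends were 36.6 in RT and 36.8 in FC. Choroid plexus genes moved with the groups, with 7 of 8 higher in FC than in CC, 1 of 8 (Ttr) higher in RT than in CC and 5 of 8 higher in FC than in RT with RUVs. With UQ alone these counts were 7, 0 and 0. Their summed RPKM ranged from 14 to 24.1 over the CC libraries, from 44.2 to 791.5 over FC and from 23.0 to 209.3 over RT. The part of choroid plexus tissue in the values of Btg2, Tob1 and Tob2 was not tested.

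No gene passed in the lists of hippocampal excitatory neurons, interneurons, astrocytes, oligodendrocytes, microglia, endothelium, and lymphocytes and blood, in any of the 3 comparisons with RUVs or with UQ alone. By unadjusted p under 0.05, from 0 to 3 genes of each list did. Excitatory neuron markers summed to 1379 to 1618 RPKM in CC, 1309 to 1537 in RT and 1119 to 1523 in FC, so markers of the labelled tissue were abundant, and no marker of any list stayed at 3 reads or fewer in all libraries, though 3 of the 8 lymphocyte and blood markers had too few reads to be tested. The other sums in CC were 530.6 to 591.5 RPKM for interneurons, 483.5 to 521.7 for astrocytes, 834.7 to 900.2 for oligodendrocytes, 164.2 to 178.2 for microglia, 93.8 to 108.3 for endothelium and 35.6 to 97.9 for lymphocytes and blood. In FC they reached up to 1247, 533.8, 1258, 279.6, 177.6 and 135.8, and in RT up to 802.6, 504.6, 1163, 238.3, 140.7 and 116.6, in the same order. Without FC3 and RT3 these upper ends were 581.5, 533.8, 932.4, 180.5, 97.3 and 65.1 in FC, and 633.1, 504.6, 931.7, 178.7, 100.6 and 48.9 in RT, and excitatory neuron markers summed to at least 1470 and 1392. Their part in the values of the members was not tested.

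Across the 29 other fits of each gene, Btg2 passed the threshold in all 29 for both comparisons with CC. For Tob2 the count was 27 (FC vs CC) and 28 (RT vs CC). Tob1 passed in 26 and 27. Btg1 and Btg3 passed in none, nor did any member for FC vs RT. Each of the 15 fits that left out 1 library called Btg2, Tob1 and Tob2 in both comparisons. The fits that lost a call were those with UQ alone in all 15 libraries, with or without the library number as a block, and for Tob1 also RUVs with 1 factor (FC vs CC, 0.34, FDR 0.0291).

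**Figure D5:**
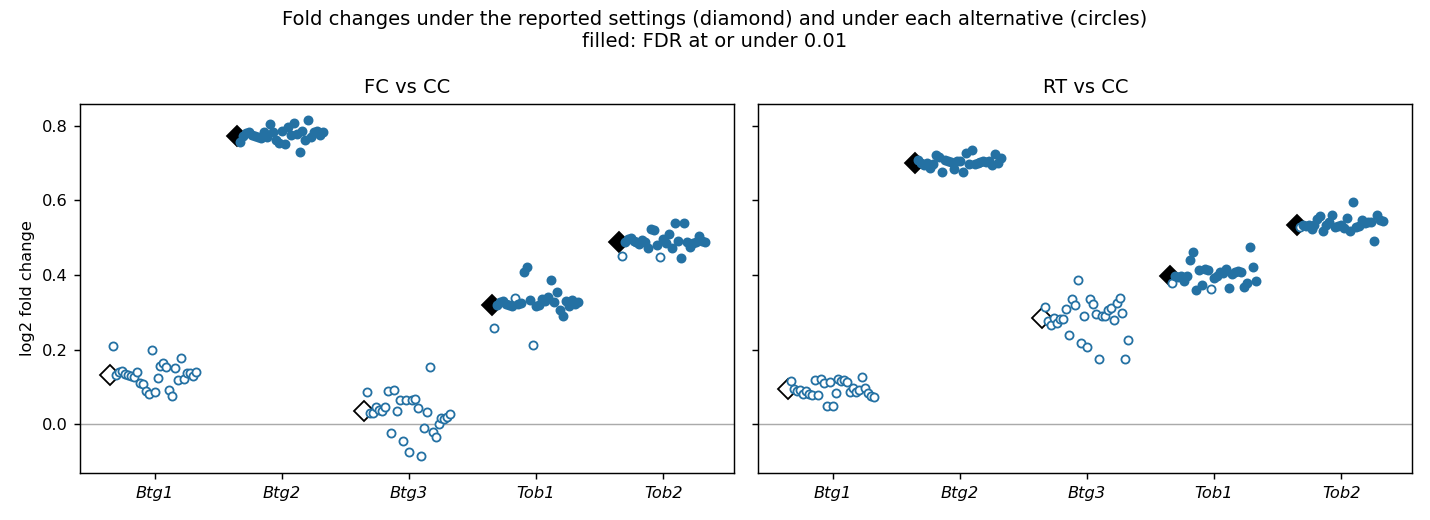
The vertical axis is the log2 fold change of each gene for FC vs CC (left) and RT vs CC (right), with the reported value as a diamond and the 29 other fits as circles, filled where the FDR was at or under 0.01. Btg2 is filled throughout, between 0.73 and 0.81 for FC vs CC, a few open circles stand among Tob1 and Tob2, and Btg3 crosses 0 for FC vs CC.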

How the data were processed

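Hippocampal polyA RNA of 15 mice was sequenced as paired reads in 5 CC, 5 FC and 5 RT libraries. The authors aligned reads with GSNAP to mm9, kept unique concordant pairs and deposited raw counts per Ensembl gene made with HTSeq 0.6.1, with no strand setting given in the sources used here. An entry was tested if over 10 reads were counted in over 5 libraries. All 15 libraries entered 1 negative binomial model of edgeR 4.0.16 (R 4.3.3) with UQ factors and 5 RUVs factors, rewritten from the published algorithm with the 625 negative control genes of the study. Likelihood ratio tests were adjusted by Benjamini-Hochberg over all genes, with a threshold of FDR 0.01. The code was also run on simulated counts with known changes. Those counts held no unwanted variation and no library like FC3 or RT3. That run therefore cannot show how the tests behave on data like these. DESeq2 1.42.0 and the settings named in the closing section were alternatives. The article and the series text do not give the same count of animals or days, so n counts libraries. With UQ alone the p-values measure the spread between libraries. With RUVs they measure only the spread left after the 5 factors, which reduce it by construction.

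The members and lists were chosen with earlier results of these data known. The members are given in full; of each pathway list, the genes past the threshold, or else those of smallest p, are named, and of each marker list the calls and summed level. For likeness, r was computed over 13 libraries. A few genes that these rules name are not reported here. RPKM used exonic lengths of the mm9 annotation and library totals. Each SE is the size of the log2 fold change over the square root of its likelihood ratio statistic, and is not given by edgeR itself. Intervals are at 95% and were built from these SEs by the normal distribution. Libraries of a group differed beyond counting noise (chi-square per degree of freedom 6.40 to 444.7, the highest for FC3 with FC8). None was thus a plain resequencing of another library of its group. Separate libraries from the same RNA or animal cannot be told by this measure. Deviations from group means correlated between the FC and the RT library that share a number (r 0.381 to 0.919, median 0.732, across 14991 genes). The highest of these was FC3 with RT3. For different numbers r was -0.810 to 0.669 with a median of 0.207, so the ranges overlapped. The numbers may thus pair FC with RT, and the reported model has no term for them. For CC with FC or RT the same-number values were -0.51 to 0.35. Their medians were -0.10 and -0.06, against 0.03 and 0.05 for different numbers. These values gave no sign that the numbers pair CC with either group, but 5 values per comparison cannot exclude it.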

Additional observations from a re-analysis of the deposited data

Results flagged for a closer look

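Of the members' entries, 1 group of 5 libraries held a library far from the others by Dixon's gap. In the second entry of Tob2, RT5 had 22 UQ counts while the other RT libraries had 12 to 13. Chance alone flags about 1 in 20 groups.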

How the results depend on the processing

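With UQ alone, 1 member (Btg2) passed in each comparison with CC, where 3 passed in the model reported. With the replicate block and UQ alone 1 member passed in FC vs CC, and 2 (Btg2 and Tob2) in RT vs CC; the replicate block with the RUVs factors changed no call of a member. Leaving out 1 library at a time kept 3, 3 and 0 members (FC vs CC, RT vs CC, FC vs RT). The cause of these differences was not tested. Pathway genes past the threshold were 2, 1 and 0 as reported. For FC vs CC they were 0 with UQ alone (with or without the replicate block, or without FC3 and RT3), 1 with the quasi-likelihood test, DESeq2, RUVs with 3 or 1 factors and RUVg, 4 with the replicate block and RUVs, 5 without FC3 and RT3, 5 at FDR 0.05, and 1 to 5 leaving out a library. For RT vs CC they were 0 in the fits with UQ alone, 2 with no filter, 2 without FC3 and RT3, 3 at FDR 0.05, and 1 to 3 leaving out a library. For FC vs RT they were 1 with no filter, RUVall, the replicate block, without FC3 and RT3 and at FDR 0.05, and 0 to 1 leaving out a library. For most of these fits the share of all genes that passed is not given. Nothing is therefore read from the changes in these counts.

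Signs turned only for values that no fit called. Btg3 for FC vs CC was -0.0247 with RUVg and -0.0443 with the replicate block, and -0.0857 to 0.152 leaving out a library. Without FC3 and RT3, FC minus RT was -0.0145 for Btg1 and 0.0343 for Tob1 with RUVs, and -0.0203 and 0.00645 with UQ alone. Leaving out a library it was -0.0206 to 0.0849 for Btg1 and -0.142 to 0.0228 for Tob1. Btg3, at 41 to 110 reads per library, is the member whose precision depth limits most.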
